A study of Homo sapiens with 6 samples.

Results

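Sites of open chromatin that were listed in hormone-deprived control cells, and in neither of the other conditions, were taken from 3 ATAC-seq peak lists of LNCaP cells. Peaks of the 3 lists that overlapped by 1 bp or more were merged, and a region was kept where it held a peak of the hormone-deprived control list alone. This gave 2642 of 21031 merged regions (12.6%). They made up 22.5% of the 11756 regions with a hormone-deprived control peak. Each of the 2642 regions held exactly 1 peak, so that region and peak are the same interval, and they were 21.8% of the 12096 peaks of that list. The members were chosen by the authors' peak calls in the 3 lists. Their absence from the other lists, their scores and their widths are therefore not findings about the conditions.

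LNCaP, a widely used human prostate cancer line, responds to androgen. The 3 groups were shCON CDT, cells with a control hairpin kept for 72 hours in CDT, the hormone-deficient condition; shCON DHT, the same control cells with 3 hours of the androgen dihydrotestosterone after the 72-hour withdrawal; and shRB CDT, cells with a hairpin against the retinoblastoma protein RB after 72 hours of CDT. All groups thus went through hormone withdrawal, and the shCON CDT cells differed from each of the other groups in 1 respect. Each group had 2 libraries, which the authors combined into 1 list, and the labels do not say whether they came from separate cultures.

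ATAC-seq uses a transposase that inserts adapters into DNA free of nucleosomes, so that promoters, enhancers and insulators stand out as peaks. In prostate cells the androgen receptor moves to the nucleus on binding hormone and occupies enhancers, many of which pioneer factors such as FOXA1 have already opened. RB restrains E2F transcription factors and recruits chromatin-modifying enzymes to their target promoters. A site listed in hormone-deprived control cells alone is one that passed the peak threshold with RB present and androgen absent, and passed it neither after short androgen exposure nor after RB depletion.

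The lists hold positions and 1 whole-number score per peak, and no read counts. Sequencing depth is therefore unknown, and a site missing from a list may lie just under its threshold. With 1 pooled list per group there is no spread between replicates to set a difference against, and no p-value is given. Intervals are exact (Clopper-Pearson) 95% binomial intervals for shares and order-statistic intervals for medians. They cover counting error only and treat peaks as independent.

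By the rule, the class is the part common to the shCON CDT peaks missing from shCON DHT and those missing from shRB CDT. Of the shCON CDT peaks, 34.6% had no overlapping peak in shCON DHT and 26.8% had none in shRB CDT. The 2642 regions were 63.1% (61.6 to 64.5) of the former and 81.5% (80.2 to 82.9) of the latter. Most shCON CDT peaks missing from shRB CDT were thus missing from shCON DHT as well, but both comparisons share the shCON CDT list.

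The regions were mostly narrow and low in the score order. Their scores, which the authors assigned and which are comparable only within a list, had a median of 501 (496 to 506) and ranged from 413, the lowest score in the list, to its cap of 1000. The median for the other shCON CDT peaks was 891 (879 to 903). The median region stood at the 19.2 percentile of the shCON CDT list (18.3 to 20.1), and 1307 regions (49.5%) scored under 500. Only 187 (7.08%) scored above the list's median. Region width had a median of 588 bp (575 to 603), with a range of 150 to 2450 bp, against 1031 bp (1019 to 1042) for the other shCON CDT peaks.

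The share of peaks that were listed in shCON CDT alone fell from band to band of the score. It was 63.0% (60.1 to 65.9) for the 1092 peaks scoring 413 to 449 and 41.0% (38.7 to 43.3) for the 1765 scoring 500 to 599. At scores of 600 to 699 it was 24.1% (21.8 to 26.5), and at the cap 0.890% (0.621 to 1.24), or 35 of 3931 peaks. Width showed the same order. The narrowest peaks, of 150 to 401 bp, were in the class in 59.0% of cases (56.2 to 61.8), and the widest, of 1548 to 3000 bp, in 3.06% (2.16 to 4.19).

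**Figure D1:**
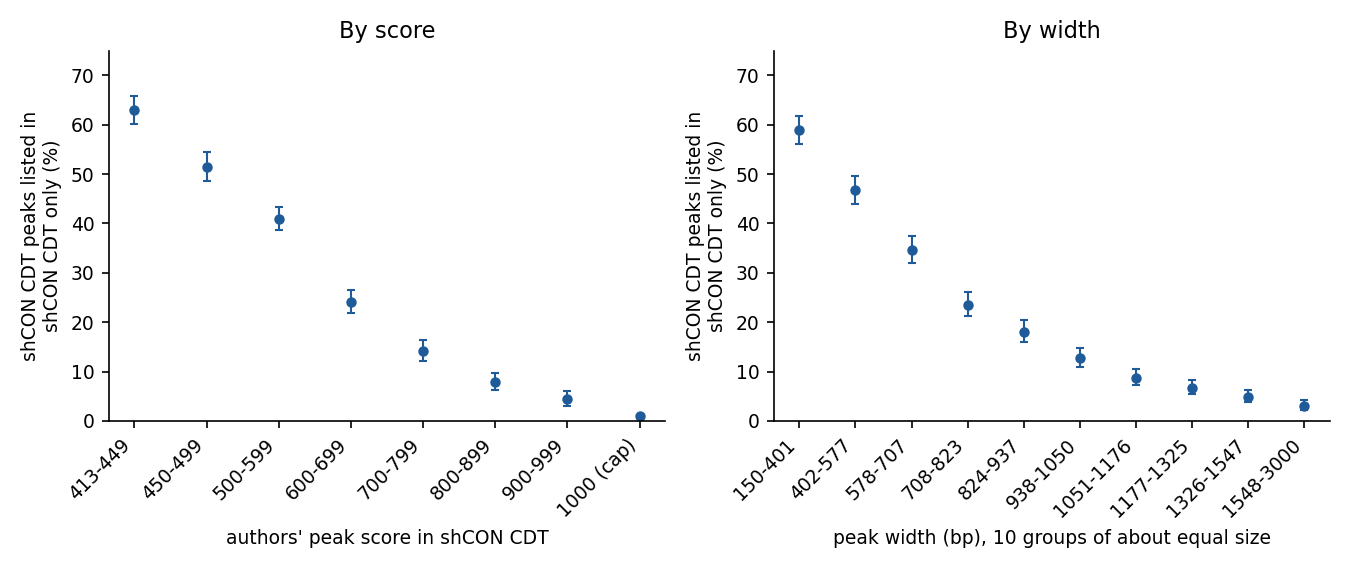
Share of shCON CDT peaks listed in shCON CDT alone (y axis, %, with exact 95% intervals) in 8 bands of the authors' score (left) and 10 width groups (right). The share goes from 63.0% in the lowest score band to 0.890% at the cap, and from 59.0% for the narrowest to 3.06% for the widest peaks.

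Score and width each went with the share when the other was held. The rule rests on overlap, which a narrow peak has less room to make, so width is partly tied to membership by construction. Among peaks scoring under 500, 77.0% (72.9 to 80.7) of those under 400 bp were in the class, against 37.0% (33.8 to 40.4) of those of 800 bp and over. At the cap these shares were 16.9% (10.7 to 24.96), or 20 of 118 peaks, and 0.280% (0.128 to 0.532), or 9 of 3209. The members were also narrower than the other peaks of the same score band: 559 against 831 bp at scores of 413 to 449, and 604 against 966 bp at 600 to 699. At the cap the difference was widest, with a median of 258 bp for the 35 members and 1136 bp for the other 3896 peaks.

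The edge of the rule held regions separated by a few bases. The member with the smallest gap lay at chr1:151804031-151804474, 3 bp from a shCON DHT peak and 357 bp from a shRB CDT peak. Next came chr15:63893395-63893714, 4 bp from a shRB CDT peak and 12 bp from a shCON DHT peak, and chr3:125313553-125313748, 4 bp from a shCON DHT peak and 50 bp from a shRB CDT peak. Just outside the rule, chr8:10696513-10696812 overlapped a shCON DHT peak by 12 bp, chr4:108911482-108911708 overlapped a shRB CDT peak by 13 bp and chr2:33823545-33823772 a shCON DHT peak by 19 bp. Few regions were this close: 36 members had a gap of 50 bp or less, and 22 shCON CDT peaks outside the class had a largest overlap of 50 bp or less.

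Beyond the edge, a small set of members lay beside peaks of the other lists, and most lay farther away. The gap to the nearest peak of either other list was at most 500 bp for 177 members (6.70%, 5.78 to 7.72). Only 39 more members were reached by widening this to 1 kb, and 584 (22.1%, 20.5 to 23.7) had such a peak within 10 kb. The other 2058 (77.9%) had none within 10 kb, and 635 (24.0%, 22.4 to 25.7) none within 100 kb. The median gap was 35.2 kb (33.3 to 37.4). With overlap excluded by the rule, 77.9% of the class thus lay over 10 kb from the peaks listed in the other conditions. For the class, the median gap to a region common to all 3 lists was 102 kb. It was 131 kb for regions of shCON DHT alone and 91.8 kb for those of shRB CDT alone.

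The 177 regions within 500 bp of another list's peak had distinct values. Their median width was 349 bp (291 to 385) and their median score 580 (545 to 633), against 603 bp (587 to 622) and 498 (492 to 503) for the other 2465. Of the 177, 74 were near peaks of both other lists, 62 near shRB CDT alone and 41 near shCON DHT alone. For 122 of them (68.9%, 61.5 to 75.7), a nearby peak of another list belonged to a region with a different shCON CDT peak. In those places the sites were listed in shCON CDT as at least 2 separate peaks, of which at least 1 was matched in another condition.

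These close neighbours made up most of the members at the score cap. Of the 35 members with a score of 1000, 20 lay within 500 bp of a peak of another list (57.1%, 39.4 to 73.7). The share was 3.92% (2.60 to 5.66) for the 688 members scoring up to 449 and 22.9% (10.4 to 40.1) for the 35 scoring 902 to 996. Another 13 members at the cap were over 10 kb from any peak of the other lists.

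**Figure D2:**
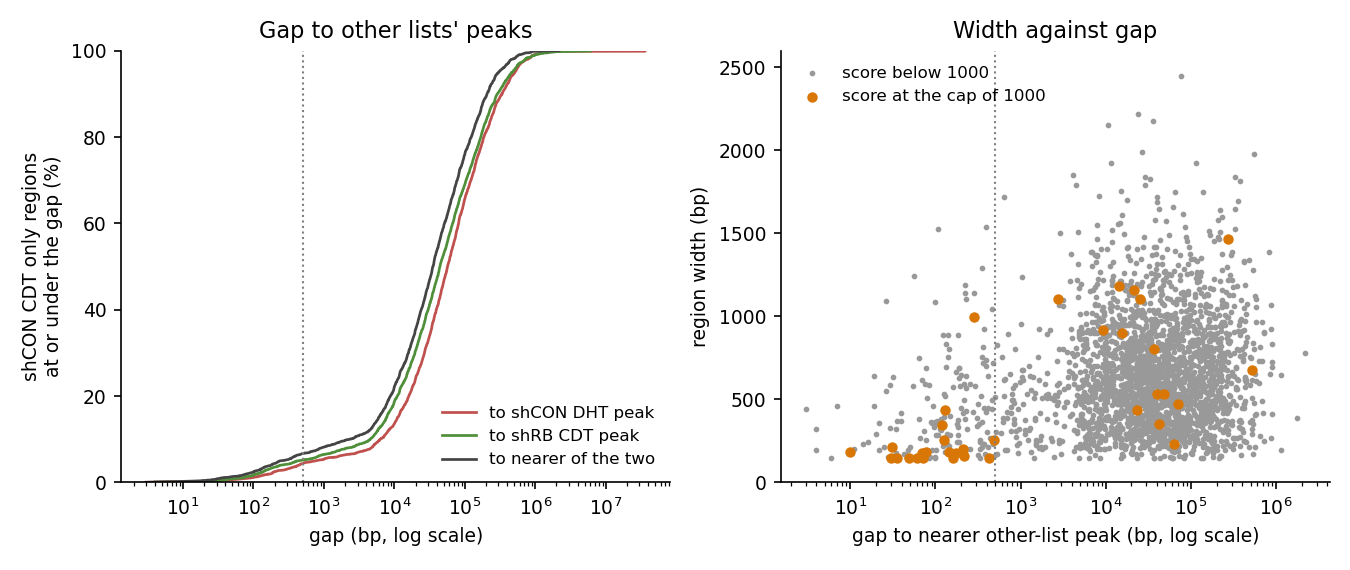
Left, cumulative share of the 2642 regions (y axis, %) by gap to the nearest shCON DHT peak, shRB CDT peak or the nearer of these (x axis, bp, log scale). Right, region width (y axis, bp) against the gap to the nearer peak; orange points are the 35 members at the score cap, and the dotted lines mark 500 bp. Of the orange points, 20 lie at or left of the line and 13 lie beyond 10 kb.

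The 12 named members at the score cap are the widest of the 35 tied there, and most stood alone. The first was chr5:107007076-107008542, 1467 bp wide, 274 kb from the nearest shRB CDT peak and 589 kb from the nearest shCON DHT peak. Both chr19:58858205-58859385 (1181 bp) and chr19:11592778-11593935 (1158 bp) lay closer to other listed sites, with gaps of 14.2 and 21.7 kb to shRB CDT peaks. Then followed chr1:51551906-51553009, 1104 bp wide and 25.5 kb from a shRB CDT peak, and chr17:77001323-77002426, of the same width and 2.73 kb from a shCON DHT peak. The sixth, chr15:22041977-22042971, was the only one of the 12 within 500 bp of another list's peak, 283 bp from shRB CDT.

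Next in width, chr20:43104207-43105126 (920 bp) was 9.28 kb and chr9:98272982-98273881 (900 bp) was 15.5 kb from a shRB CDT peak. The region chr6:8102136-8102940 (805 bp) had a gap of 36.8 kb to shRB CDT and 191 kb to shCON DHT. The tenth, chr5:25330431-25331107 (677 bp), stood 521 kb from a shCON DHT peak and 6201 kb from the nearest shRB CDT peak. The last 2 were chr8:134259694-134260227 (534 bp) and chr1:28655176-28655706 (531 bp), with gaps of 48.7 and 40.2 kb. In all, 9 of the 12 were over 10 kb from any peak of the other lists, whereas 19 of the other 23 members at the cap, all narrower, were within 500 bp of one.

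The widest members were not the highest scoring. They were chr1:3369404-3371853 (2450 bp, score 718), chr14:19792953-19795172 (2220 bp, score 597) and chr1:46086775-46088952 (2178 bp, score 581). The members farthest from any peak of the other lists were chr13:56151225-56152002, at 2167 kb, chr2:82270619-82271007, at 1741 kb, and chr3:83452808-83453454, at 1144 kb. Their scores were 499, 598 and 661. At the lowest score of 413, the narrowest were a pair on chromosome 19, chr19:45958814-45959003 and chr19:45959082-45959292, followed by chr9:90729598-90729893.

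The nearer neighbour was more often a site of the RB-depleted cells. The nearest peak of another list came from shRB CDT for 1683 members (63.7%, 61.8 to 65.5) and from shCON DHT for 946 (35.8%). The median gap was 44.3 kb (41.9 to 47.8) to a shRB CDT peak and 56.9 kb (53.4 to 61.2) to a shCON DHT peak. The shRB CDT list was the longer, at 14788 peaks against 12896. When both were trimmed by score to 12096 peaks, the nearest peak of the same 2642 regions came from shRB CDT for 58.9% (57.0 to 60.8) and from shCON DHT for 40.6%. The median gaps were then 57.5 kb (53.9 to 62.3) and 59.96 kb (55.7 to 63.8). These intervals overlapped, but both gaps belong to the same regions, so the overlap does not show whether the gaps differ.

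Some of the regions lay in tight pairs. Another member lay less than 1 kb away for 336 of them (12.7%, 11.5 to 14.0), at a median gap of 73.5 bp, and between 1 and 10 kb away for only 66 (2.50%). The 336 formed 159 pairs and 6 triplets. They were narrow, with a median width of 369 bp (338 to 391) against 617 bp (598 to 633) for the rest, while their median scores were close, at 488 (470 to 505) and 503 (498 to 508). Counted once each, the pairs and triplets reduce the class to 2471 sites. Pairing under 1 kb was 20.5% (19.2 to 22.0) among the 3297 regions of shCON DHT alone and 10.6% (9.78 to 11.6) among the 4737 of shRB CDT alone, so it was not limited to hormone-deprived control cells. Nor was it limited to the class: a shCON CDT peak of any class lay less than 1 kb away for 17.8% of the members and for 10.1% of the other shCON CDT peaks, or 11.8% of the whole list.

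At 10 kb, 2240 members (84.8%) were alone, and the largest groups held 3 members. There were 10 such groups. The longest were chr6:166829552-166844379, spanning 14828 bp, chr21:11079747-11093467, spanning 13721 bp, and chr22:46957456-46965718, spanning 8263 bp. Their member scores ran from 444 to 529, from 458 to 792 and from 487 to 562.

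The chromosomes differed in how many of their shCON CDT peaks were in the class. Chromosome 21 had the highest share, with 69 of 178 peaks (38.8%, 31.6 to 46.3), and chromosome X the lowest, with 30 of 229 (13.1%, 9.02 to 18.2). The interval lay above the 21.8% of all peaks for 6 of 24 chromosomes (7, 8, 18, 20, 21 and 22) and below it for 3 (13, 19 and X). Chromosome 19, which is dense in genes, had 139 of 782 (17.8%, 15.2 to 20.6). Among the gene-poor chromosomes, 18 had 69 of 232 (29.7%, 23.9 to 36.1), 13 had 29 of 185 (15.7%, 10.8 to 21.7) and 4 had 86 of 455 (18.9%, 15.4 to 22.8).

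Since scores and widths also differed by chromosome, each peak was given the share of its score band and width group over the whole list. On that basis 30.1% of the chromosome 21 peaks would be in the class, and 22.4% of the chromosome X peaks. The observed interval still lay above the share so given on chromosomes 8 and 21, and below it on chromosomes 17 and X. Chromosome 8 had 134 of 493 peaks (27.2%, 23.3 to 31.3) where score and width gave 22.0%, and chromosome 17 had 129 of 653 (19.8%, 16.8 to 23.02) where they gave 23.3%. The intervals are not adjusted for the 24 chromosomes examined.

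**Figure D3:**
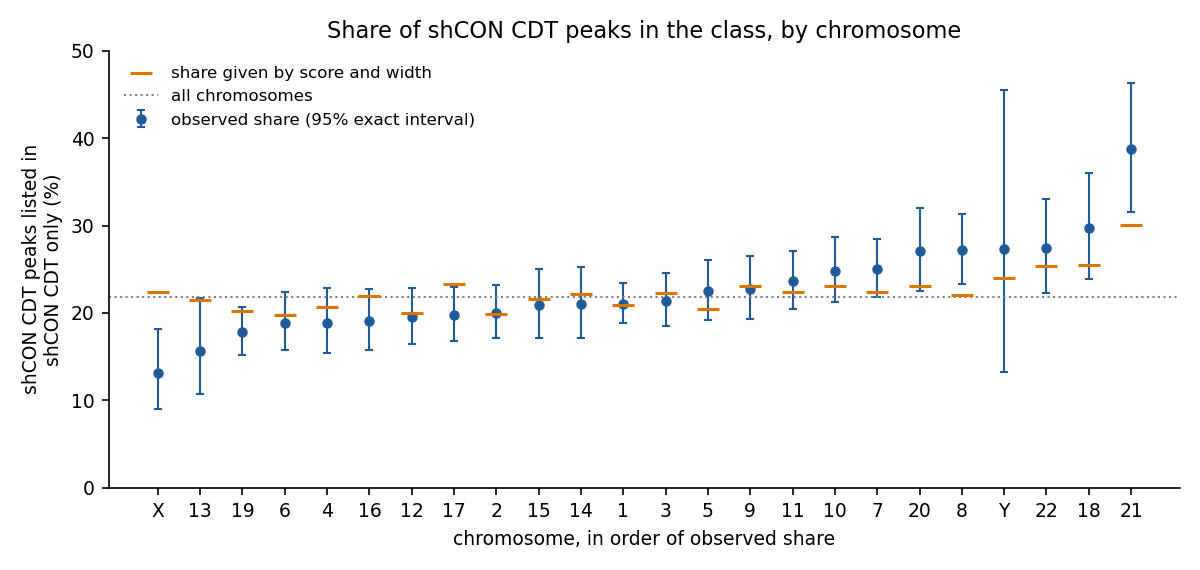
Share of shCON CDT peaks listed in shCON CDT alone (y axis, %) for each chromosome (x axis, ordered by share), with exact 95% intervals. Orange bars give the share expected from score and width alone, and the dotted line is the 21.8% of all peaks. Chromosome X, at 13.1%, and chromosome 21, at 38.8%, lie at the extremes.

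Single stretches carried part of these values. On chromosome 21, 21 of the 69 members lay between 9 and 12 Mb, where 34 shCON CDT peaks were listed (61.8%, 43.6 to 77.8, against 37.3% given by score and width). This stretch adjoins the centromere, where repeats and duplicated sequence make reads hard to place. Read mapping there was not tested. Its members had a median score of 649 and included 1 at the cap. Elsewhere on chromosome 21 the share was 33.3% (25.7 to 41.7), with 28.3% given by score and width, and the interval then held the given share.

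On chromosome X, leaving out a stretch widened the difference. The first 3 Mb, the tip of the short arm that is largely shared with chromosome Y, held 10 of the 30 members among 23 peaks (43.5%, 23.2 to 65.5). Over the rest of the chromosome 20 of 206 peaks were in the class (9.71%, 6.03 to 14.6), where score and width gave 21.1%. The low share of chromosome X was thus lower still without its tip. For comparison, chromosome X had 72 of the 3297 regions of shCON DHT alone and 53 of the 4737 of shRB CDT alone. Of the 2642 regions of the class it had 30, beside 229 of all 12096 shCON CDT peaks. Relative to its size, shRB CDT alone thus had about as few regions on chromosome X as the class.

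Near chromosome ends, a higher share of the shCON CDT peaks was in the class than in the interiors, although most members lay in the interiors. An end was taken as position 1 or the last peak of any list, so the short arms without assembled sequence count as distance. Within 1 Mb of an end, 167 of 527 shCON CDT peaks were in the class (31.7%, 27.7 to 35.9), against 2475 of 11569 farther in (21.4%, 20.6 to 22.2). Score and width gave 25.8% and 21.7%. The share was 30.0% (24.7 to 35.7) within 0.5 Mb and 33.6% (27.7 to 39.9) from 0.5 to 1 Mb. Score and width gave 24.2% and 27.6%, just under these intervals. The observed share was 28.0% (23.7 to 32.7) from 1 to 2 Mb and 22.9% (18.2 to 28.1) from 2 to 3 Mb, with 25.5% and 23.8% given. From 3 to 5 Mb it was higher again, at 26.1% (22.2 to 30.2), where score and width gave 22.8%. From 1 to 5 Mb the intervals held the given shares. The share thus did not fall steadily with distance from the end.

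Compared with the other classes, 6.32% (5.42 to 7.32) of the shCON CDT regions lay within 1 Mb of an end. This was 2.52% (2.01 to 3.11) for regions of shCON DHT alone, 4.79% (4.20 to 5.44) for those of shRB CDT alone and 3.76% (3.33 to 4.23) for the 7149 regions common to all 3 lists. The interval of the class did not overlap those of shCON DHT alone and of the common regions, and touched that of shRB CDT alone. At 3 Mb the class, at 13.2% (11.9 to 14.5), and shRB CDT alone, at 13.1% (12.1 to 14.1), could not be told apart. Of all peaks, 4.36% of shCON CDT, 3.37% of shCON DHT and 4.15% of shRB CDT were within 1 Mb of an end. Without chromosomes 7, 19 and 21, which hold the windows richest in members, the share of the class was 5.39% (4.50 to 6.41). The other classes are not given without these chromosomes, so this value cannot be set against theirs.

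**Figure D4:**
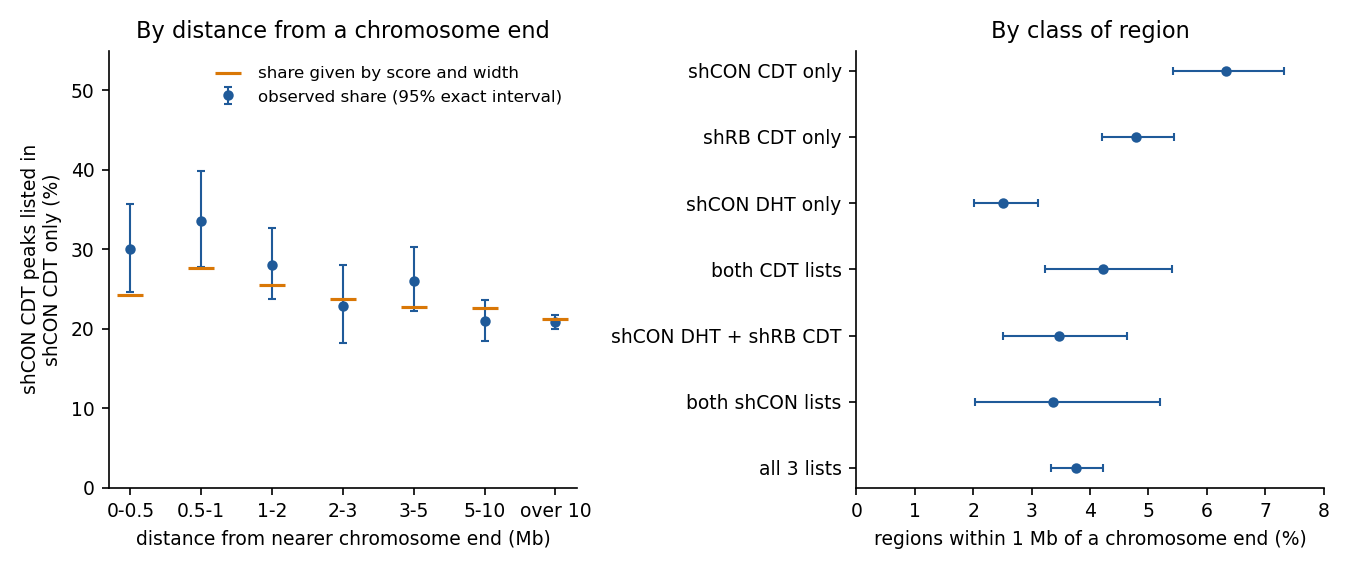
Left, share of shCON CDT peaks listed in shCON CDT alone (y axis, %) by distance from the nearer chromosome end (x axis, Mb), with the share given by score and width in orange. Right, share of the regions of each class within 1 Mb of an end (x axis, %). Bars are exact 95% intervals; the class of shCON CDT alone is the highest on the right, at 6.32%.

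Of the 3 windows of 1 Mb with the most members, 2 lay at a chromosome end and 1 beside the chromosome 21 centromere. The start of chromosome 19, chr19:1-1000000, held 14 members among 38 regions, from 266998 to 984669, with scores of 418 to 796. The end of chromosome 7, chr7:158000001-159000000, held 13 among 30 regions, with scores of 429 to 762 and widths of 262 to 1099 bp. The third window, chr21:10000001-11000000, held 9 among 17 regions and none common to all 3 lists. In the chromosome 19 and 7 windows, 10 and 9 regions were of shRB CDT alone, and 3 in each were of shCON DHT alone. Over all regions these classes make up 22.5% and 15.7%, and so few regions cannot show a departure from that. Of the 1430 windows with any member, 763 had exactly 1.

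**Figure D5:**
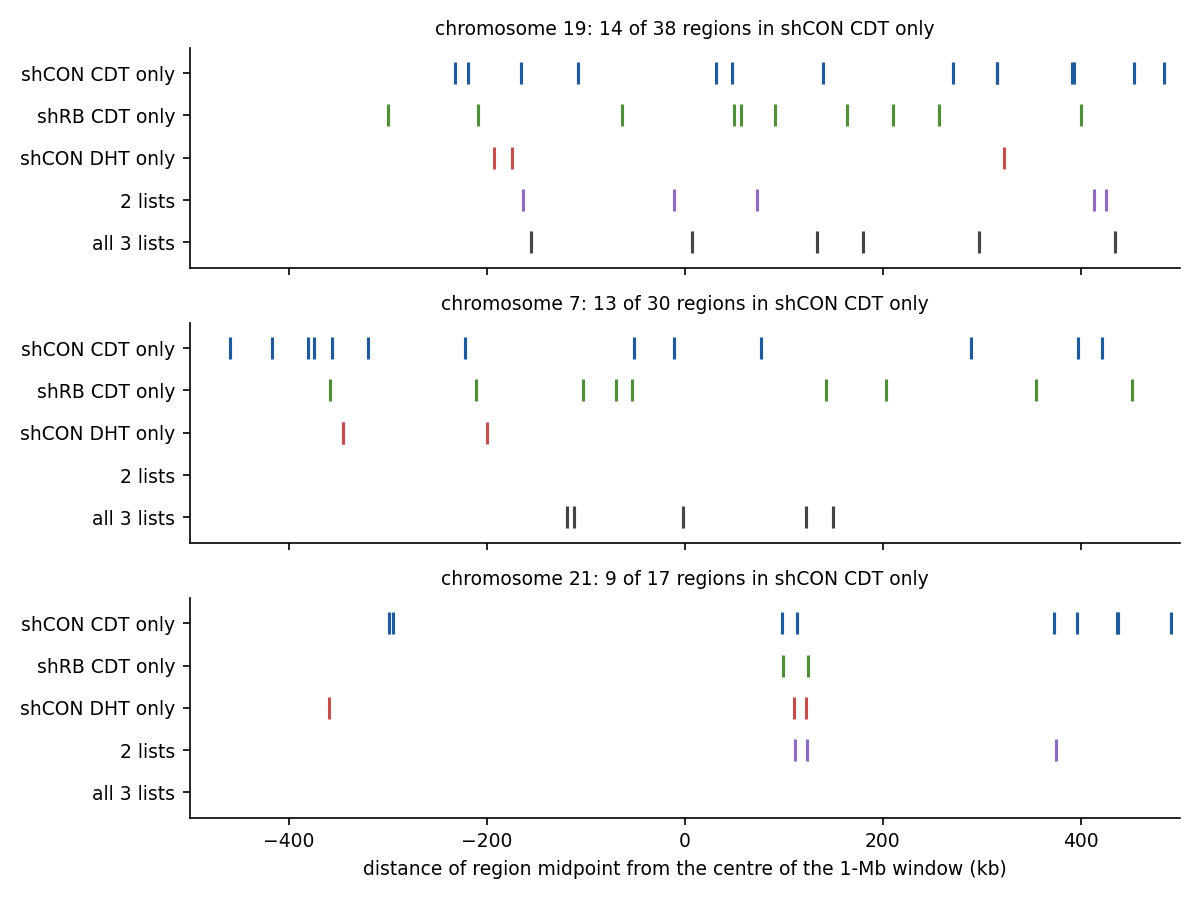
Positions of all merged regions in the 3 windows of 1 Mb with the most members, as distance of the region midpoint from the window's centre (x axis, kb), in 1 row per class of region. The 14 members on chromosome 19 and the 13 on chromosome 7 spread over their windows. The 9 on chromosome 21 fall in a few stretches of a window with no region common to all 3 lists.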

How the data were processed

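ATAC-seq was run on 6 LNCaP libraries in 3 groups of 2. The deposited files are 3 peak lists, 1 per group, each pooling replicates 1 and 2. Per the labels, the list names give an irreproducible discovery rate of 0.1, with filtering, merging and scoring applied. Per the submitters' processing notes the build is hg19. Positions printed here count from 1. The aligner, peak caller, read filters and any shift for the transposase are not named by any label or header used. The unit of the deposited values is a whole-number score, capped at 1000, whose formula is not stated, so it was used only within its list.

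Peaks were joined on 1 bp of overlap in Python 3.11.15 with pandas 2.3.3 and numpy 2.4.6; intervals came from scipy 1.17.1 and plots from matplotlib 3.10.9. The code recovered 10 of 10 planted answers in simulated peaks. Expected shares came from 8 score bands by 5 width groups. Named regions were 12 at the highest score (the widest of 35 tied at the cap), and 3 each of the widest, farthest, lowest scoring and nearest the rule's edge, with the largest groups and the 3 richest windows. Alternatives were another overlap rule (50% reciprocal, or within 500 bp), the top 50% of each list, lists trimmed to one length, autosomes only and peaks reset to 500 bp. The members and measures were chosen with earlier results of these data known. Gene names, sequences and motifs were not analysed here, since the gene and promoter tables at hand are of another build.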

Additional observations from a re-analysis of the deposited data

How the results depend on the processing

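Of the 11 values computed with autosomes only, all but the number of regions stayed within their counting interval. The number of regions was 2603 and has no such interval. A 50% reciprocal overlap gave 3417 regions and kept all 2642, as did trimming the lists to one length (2929 regions). Neither setting could drop a member. A peak without 1 bp of overlap has no 50% overlap, and shCON CDT, with 12096 peaks, is the shortest list, so only the others were trimmed. Counting peaks within 500 bp as shared kept the 2465 members without another list's peak that near, which is also set by construction. Resetting peaks to 500 bp gave 2831 regions, of which 2619 were the same. The top 50% of each list gave 669 regions. Of these, 187 were among the 2642, which is every member scoring at least 760, the lowest shCON CDT score kept, and the others were no members in the full lists.

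The class's share of shCON CDT peaks was 28.2% with reciprocal overlap, 20.4% within 500 bp, 11.1% in the top 50%, 24.2% in trimmed and 23.4% in reset lists. Its median score percentile was 21.7 with reciprocal overlap and 20.4 in the top 50%. Median width was 790 bp in the top 50% and 605 bp in trimmed lists. Median gaps to shCON DHT were 41.5 kb (reciprocal), 63.0 kb (500 bp), 75.2 kb (top 50%) and 52.3 kb (reset). To shRB CDT they were 27.9, 49.9, 56.8 and 39.99 kb, and 57.2 kb in trimmed lists. With both other lists trimmed, 58.9% of the same members had their nearest peak in shRB CDT. Members within 100 kb of another were 40.5% (reciprocal) and 18.8% (top 50%), and within 10 kb 8.07% (top 50%). Common regions within 500 kb averaged 4.09 for the class, 3.94 with reciprocal overlap and 3.02 in the top 50%. The share within 3 Mb of an end was 10.3% in the top 50%, and within 1 Mb 5.39% without chromosomes 7, 19 and 21. Chromosome 21 gave 24.3% in the top 50%, and chromosome X 20.96% with reciprocal overlap. Score and width alone gave 30.1% for chromosome 21, 22.4% for chromosome X and 25.8% within 1 Mb of an end; these, the values without chromosomes and the stretches left out were chosen after seeing the data. The causes of these shifts were not tested beyond what the construction sets. No paired analysis was possible because the libraries of a group share 1 pooled list, so no replicate could be left out either. The planned gene-start and motif settings were not run, since no hg19 genome or annotation was used here.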

Other observations

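The order of regions along the chromosomes was also examined. A region directly next to a member was itself a member in 19.2% of 5273 cases (18.1 to 20.2), where members are 12.6% of all regions. It was common to all 3 lists in 29.2% (28.0 to 30.4), where such regions are 34.0% of all. The same tendency was seen for regions of shCON DHT alone, whose neighbours were of their own class in 25.8% of cases (15.7% of all regions), and of shRB CDT alone, with 27.4% (22.5% of all). The tight pairs and triplets described above, with 336 members of the class, are part of these counts. Shares without them were not computed, so how far they make up the excess over 12.6% was not tested.

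Uninterrupted runs of members were short. No run exceeded 4 members, while the longest run was 7 for shCON DHT alone and 7 for shRB CDT alone, both of them larger classes. Runs of 3 or more held 263 members (9.95%). The most compact run of 4 was chrY:59001384-59014140, over 12.8 kb, followed by chr7:5466106-5510784 over 44.7 kb and chrX:1211068-1263844 over 52.8 kb. Chromosome Y held 9 members among 33 shCON CDT peaks (27.3%, 13.3 to 45.5). These 9 had a median score of 808, and all 33 peaks of that chromosome a median of 953.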
